A study of Mus musculus with 59 samples.

Results

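Lungs of mice given the highest dose of benzo(b)fluoranthene (BbF), a polycyclic aromatic hydrocarbon, were compared with lungs of mice given either lower dose, to ask which transcripts needed the highest dose and which had already levelled off or turned back there. Arrays were taken by their tissue and dose labels: 14 of the 59 arrays of the series, made up of 5 high-dose arrays (100 mg/kg-bw/day, mice 16 to 20), 4 low-dose arrays (25 mg/kg-bw/day, mice 6, 8, 9 and 10) and 5 medium-dose arrays (50 mg/kg-bw/day, mice 11 to 15). No vehicle array entered, so none of the values below measures a change from untreated lung. All 14 animals were male Muta™Mouse, a strain that carries a bacterial lacZ transgene for scoring mutations, and were about 16 weeks old. They received BbF in olive oil by gavage on 28 consecutive days, the lungs were frozen 72 h after the last gavage, and the groups differed in dose only. An exposure label and the design text give the compound as benz(a)anthracene; the titles and the treatment protocol give BbF, the name used here. Each array held Cy5-labelled RNA from a random section of the lung of 1 mouse and Cy3-labelled reference RNA pooled from mouse cell lines, so a level is a log2 ratio of lung to that reference (called log2 ratio below) and a difference is a difference of log2 ratios between dose groups. Replicates were separate animals. In whole tissue, fewer cells of a type and less RNA per cell cannot be told apart.

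Polycyclic aromatic hydrocarbons enter cells and bind the aryl hydrocarbon receptor (AhR), which pairs with ARNT and switches on the CYP1 cytochromes and other enzymes that oxidise them, and their repressor AHRR. Some of the oxidised products bind DNA, and such damage activates the tumour suppressor p53, whose targets include inhibitors of the cell cycle, death receptors and its own antagonist MDM2. When the cell cycle stops, the genes for mitosis are repressed together, through promoter elements known as CCAAT boxes and the cell cycle genes homology region (CHR). Lung is rich in capillaries, and its endothelium is a known site of CYP1 induction.

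Promoter stretches of 6 genes are shown because the first 3 belong to the AhR battery, which held the largest increases, and the last 3 to the mitosis genes, which held many of the decreases. They are RefSeq sequences (GRCm38.p6), read 5′ to 3′ on the strand of the gene and ending at the base before the transcript start. In the first 3, capitals mark GCGTG, the core of the dioxin response element that AhR binds, or its complement on the other strand. They cover chr9:57697493-57697612 (plus strand), chr17:79715062-79715181 (minus strand) and chr13:74292332-74292451 (minus strand).
Cyp1a1: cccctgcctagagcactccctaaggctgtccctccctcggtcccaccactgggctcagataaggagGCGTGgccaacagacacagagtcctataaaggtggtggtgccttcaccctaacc
Cyp1b1: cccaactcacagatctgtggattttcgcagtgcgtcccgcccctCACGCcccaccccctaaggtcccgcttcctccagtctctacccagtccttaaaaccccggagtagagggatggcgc
Ahrr: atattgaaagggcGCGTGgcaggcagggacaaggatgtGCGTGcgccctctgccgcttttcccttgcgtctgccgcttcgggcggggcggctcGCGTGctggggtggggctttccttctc
In the last 3, capitals mark TTTGAA (the CHR letters), the CCAAT box, or the complement of either. They cover chr9:70421555-70421754, chr10:69352913-69353112 and chr7:135716380-135716579, all on the minus strand.
Ccnb2: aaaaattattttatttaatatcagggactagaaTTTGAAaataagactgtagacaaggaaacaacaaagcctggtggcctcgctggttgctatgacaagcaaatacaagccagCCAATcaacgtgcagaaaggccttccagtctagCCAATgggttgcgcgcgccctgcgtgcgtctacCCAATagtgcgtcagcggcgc
Cdk1: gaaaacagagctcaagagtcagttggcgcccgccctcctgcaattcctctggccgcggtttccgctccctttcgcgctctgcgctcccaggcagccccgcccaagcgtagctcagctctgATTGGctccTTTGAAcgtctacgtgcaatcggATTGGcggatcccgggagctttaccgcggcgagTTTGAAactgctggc
Mki67: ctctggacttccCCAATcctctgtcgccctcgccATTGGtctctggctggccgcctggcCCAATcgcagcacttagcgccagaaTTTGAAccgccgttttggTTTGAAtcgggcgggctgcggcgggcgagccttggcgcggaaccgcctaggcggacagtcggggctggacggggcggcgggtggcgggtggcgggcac
The core GCGTG stood 54 bases before the start of Cyp1a1, 76 before that of Cyp1b1 (reverse strand), and at 107, 82 and 27 bases before that of Ahrr. Over the 250 bases before the start, on both strands, 28.2% of all 32851 promoters in the table held GCGTG, 33.8% held CCAAT and 16.0% held TTTGAA. Matches to the CHR and to the CCAAT box did not overlap in the printed stretches. Of the 9 AhR targets with a sequence, 5 held GCGTG (30.9% of all genes with any promoter), and of the 13 mitosis genes with a sequence, 12 held CCAAT (37.5% of all genes) and 5 held TTTGAA (18.3%). The mitosis genes held GCGTG in 8 of 13, so this core was not confined to the AhR targets. Among called genes with a sequence, 30 of 63 higher (47.6%) and 29 of 62 lower (46.8%) genes held it. A match describes letters only.

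At the high dose 191 of 37163 genes or transcripts differed from the lower doses together, which is 0.514%: 100 were higher (0.269%) and 91 lower (0.245%). A gene was called when a probe had an adjusted p of 0.05 or less (limma, Benjamini-Hochberg over 55681 probes) and a difference of 1.5-fold or more. The largest increases were those of the cytochromes Cyp1a1 and Cyp1b1, and p53 targets, some endothelial genes and a pair of complement genes were also higher. Mitosis genes and several endothelial genes, led by Gpihbp1, were lower. For 94.8% of all genes the 95% confidence interval of the difference lay within 1.5-fold in either direction. That share includes dim genes: only 45.9% to 52.7% of probes were well above background, except on the array of mouse 13. For a dim probe, taken without background subtraction, a narrow interval does not show that the transcript was unchanged. Against the low dose alone 195 genes were called (0.525%) and against the medium dose alone 74 (0.199%), of which 27 were lower (0.0727%); these comparisons share the high-dose arrays. Between the medium and the low dose limma called 0 genes, with 2524 probes (4.53%) at an unadjusted p under 0.05. When the arrays were centred on their medians in place of loess, 135 genes were called higher and 16 lower, so that 89.4% of calls were increases against 52.4%. Only 95 of these 151 were among the 191. The median of all probes shifted by 0.03 with that setting.

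All 5 high-dose arrays lay above all 9 lower-dose arrays in 62 of the 100 higher genes, and below them in 36 of the 91 lower genes. Over all 37163 genes, called or not, 217 (0.584%) lay wholly above and 112 (0.301%) wholly below. Over the called genes the median distance from the mean of the lower doses, turned so that a called change is positive, was 0.78, 0.98, 0.49, 0.73 and 0.97 in high-dose mice 16 to 20 and between -0.19 and 0.27 in the other 9. High-dose mouse 18 was thus nearest to the lower doses, and medium-dose mouse 15 nearest to the high dose.

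**Figure D1:**
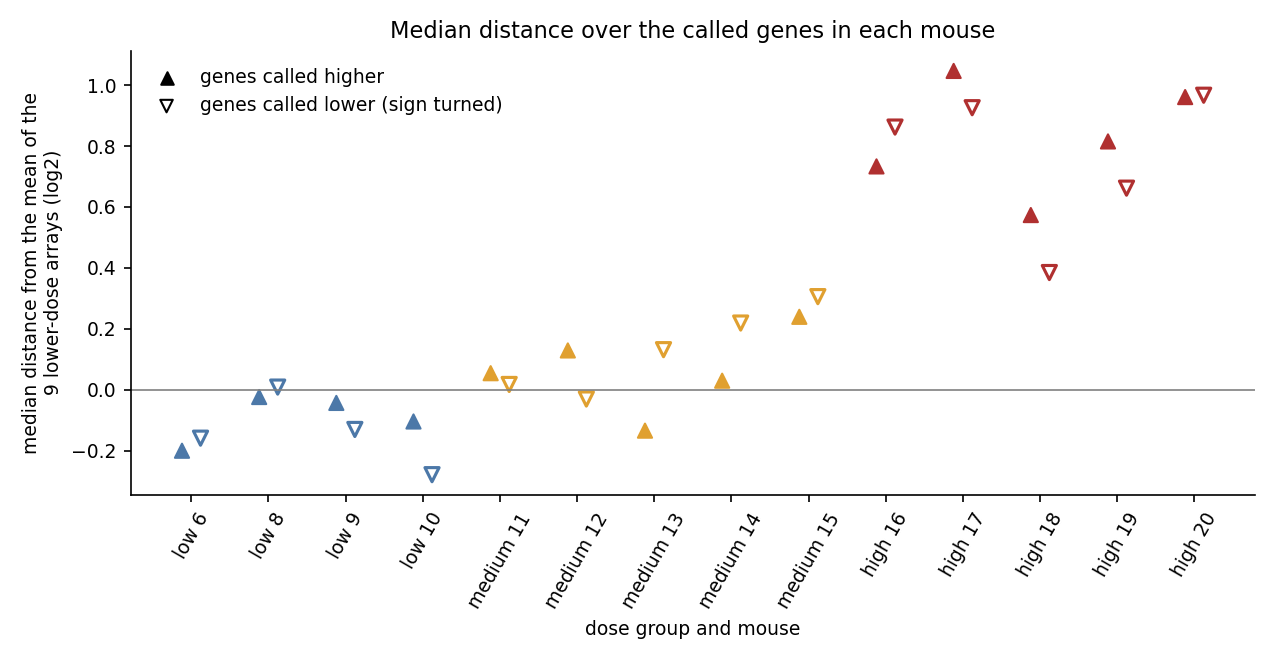
Median distance (log2) from the mean of the 9 lower-dose arrays over the genes called higher (filled triangles) and lower (open triangles, sign turned), by mouse (blue low, yellow medium, red high dose). The genes were chosen on these arrays, so the gap between groups is a description; mouse 18 is the lowest of the 5 high-dose mice, at 0.57 for the higher and 0.38 for the lower genes.

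Markers of lung were high on all 14 arrays, with log2 ratios of 6.84 to 7.72 for Sftpc (surfactant protein C) and 7.84 to 8.41 for Scgb1a1 (the club cell secretoglobin). The share of probes well above background lay between 45.9% and 52.7% on 13 arrays and was 68.8% for medium-dose mouse 13. The high-dose mean differed from that of the lower doses by -0.80 points (two-sided exact permutation p = 0.95 over 2002 splits). Mouse 13 governs that test (SD 6.92 at the lower doses, 1.74 at the high dose), so it could not show a small difference. Without mouse 13 the difference was 1.46 points, which was not tested. Low-dose mouse 6 had Krt4 at 5.73 and Krt13 at 4.17, keratins of squamous epithelium such as oesophagus, against at most 0.36 and -0.90 on the other arrays. Without mice 6 and 13 together 167 genes were called, 75 higher and 92 lower, of which 147 were among the 191.

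Genes of the AhR battery held the largest increases: 4 of 11 listed targets were higher, against 0.269% of all genes, and none lower. The list median was 0.40 against -0.001 over all genes. Cyp1a1, the main cytochrome that oxidises such hydrocarbons outside the liver, had log2 ratios of 0.84, 4.82, 1.44 and 2.83 in the low-dose mice, 2.54, 5.47, 1.80, 2.89 and 7.18 in the medium-dose mice and 7.54, 8.94, 5.99, 9.36 and 9.38 in the high-dose mice, in the order of the mouse numbers. The high-dose mice lay above all others except mouse 18, which was below medium-dose mouse 15. The mean was 8.24 ± 1.47 (SD, n = 5) against 3.31 ± 2.09 (n = 9), a 30.4-fold difference (log2 difference 4.93 ± 0.86, SE; adjusted p = 0.0104). Cyp1b1, the related cytochrome that also activates these hydrocarbons, stood at -0.46, -0.48, -1.04 and -0.25 (low), -0.40, 0.36, -0.19, 0.03 and 0.64 (medium) and 1.03, 4.95, 0.67, 4.96 and 5.01 (high). All high-dose mice exceeded every lower-dose mouse, as in 0.584% of all genes. They fell into a pair just above the lower doses (mice 16 and 18) and 3 mice near 5 (the difference was 3.52 ± 0.64, SE, or 11.5-fold, limma adjusted p = 0.0133). Ahrr was 1.12 and 1.56 in high-dose mice 18 and 16 and 3.34 to 3.94 in the other 3, against 0.30 to 1.76 at the lower doses (difference 1.85 ± 0.39, SE, adjusted p = 0.0314, on 1 of its 2 probes). Nqo1, a quinone reductase shared by AhR and NRF2, was -1.16 and -0.73 in mice 18 and 16 and 0.50 to 0.85 in the other 3, against -1.57 to -0.73 (difference 1.26 ± 0.28, SE, adjusted p = 0.0478). Tiparp, an AhR-induced repressor of the receptor, had the same 3 mice highest (0.45 to 0.69 against -0.79 to -0.52 in all others) and did not pass (adjusted p = 0.0929). The 6 other targets, among them Aldh3a1 and Ugt1a6a, differed by -0.14 to 0.40, and none of the 14 arrays had Cyp1a2 well above background. A fit with robust variances and an intensity trend together called none of the 4 (adjusted p 0.0585 to 0.146), and without high-dose mouse 17, or without mouse 20, only Cyp1a1 was called. Leaving out 1 mouse lost the call of Nqo1 in 11 of 14 cases (any mouse but 6, 16 and 18) and of Ahrr in 8 (mice 6, 8, 9, 10, 11, 17, 19 and 20), and without mice 6 and 13 together neither was called. Within the 3 slides, each of which held high and lower doses, Cyp1a1 differed by 5.09, 3.30 and 5.51 and Cyp1b1 by 3.04, 1.24 and 4.98.

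**Figure D2:**
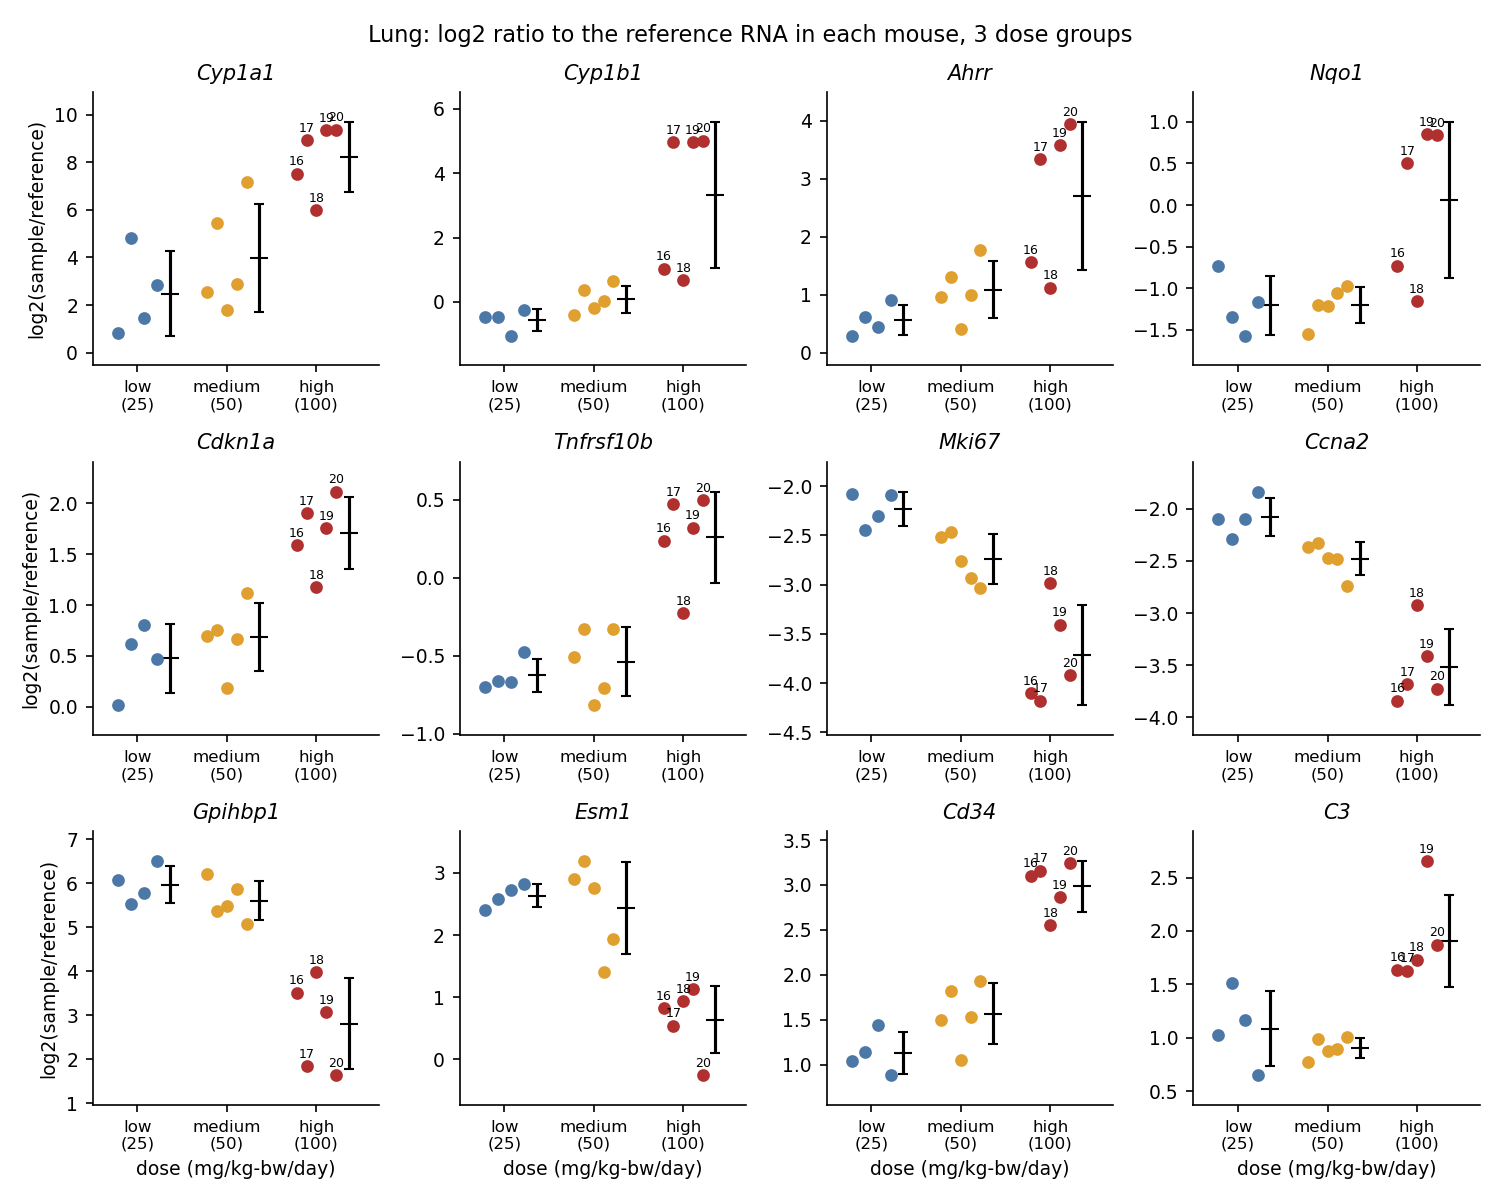
Log2 ratio of lung to reference RNA (vertical axes, each with its own range) in each mouse for 12 genes at the low, medium and high dose, with the mean and SD of each group beside its points; high-dose mice carry their numbers. For Cyp1b1, Ahrr and Nqo1 mice 17, 19 and 20 stand apart from mice 16 and 18, while for Cd34, Gpihbp1 and C3 all 5 high-dose mice lie on the same side of all lower-dose mice. For Cd34 and Gpihbp1 the naming rule required this.

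Of 24 listed p53 targets 4 were higher at the high dose, against 0.269% of all genes, and none lower. The list median was 0.29, with 20 members above 0, while 18412 of all 37163 genes were above 0. Cdkn1a, the inhibitor of cyclin-dependent kinases (p21), was 0.02, 0.62, 0.80 and 0.47 in the low-dose mice, 0.70, 0.76, 0.19, 0.66 and 1.12 in the medium-dose mice and 1.58, 1.91, 1.18, 1.76 and 2.11 in the high-dose mice. The high-dose mice did not overlap with the lower-dose mice, as in the 0.584% of all genes that lay wholly above. High-dose mouse 18 lay close to medium-dose mouse 15. Low and medium overlapped. The difference was 1.11 ± 0.16 (SE), or 2.17-fold, with an adjusted p of 0.00292. Tnfrsf10b, a death receptor, rose from a range of -0.82 to -0.33 over the lower doses to -0.23 to 0.50 (difference 0.84 ± 0.11, SE, adjusted p = 0.00185). Phlda3, an inhibitor of AKT, rose from 0.76 to 1.45 to between 1.81 and 2.49 (0.82 ± 0.12, SE, adjusted p = 0.00395), and Zmat3, an RNA-binding p53 target, from -0.45 to 0.21 to between 0.35 and 0.84 (0.74 ± 0.11, SE, adjusted p = 0.00292). These 4 were called under every alternative processing and with any mouse left out. Mdm2 was higher in all 5 high-dose mice than in any other mouse, as were 0.584% of all genes. Its difference of 0.43 (limma, adjusted p = 0.0142) was under the 1.5-fold minimum, as were those of Aen (0.51, adjusted p = 0.0405) and Zfp365 (0.57, adjusted p = 0.0475). Bax, Fas and Bbc3, which promote apoptosis, differed by 0.25, -0.04 and 0.06 and did not pass. Among 13 genes for excision repair and translesion synthesis none was called; Polk, the polymerase that copies past bulky hydrocarbon adducts, differed by 0.51 ± 0.09 (SE, adjusted p = 0.0093), under the fold minimum, and the interval of each of the other 12, Xpc and Ddb2 included, lay within 1.5-fold.

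Mitosis genes were lower at the high dose. Of 14 listed genes 6 were called lower, against 0.245% of all genes, and the list median was -0.60. None had a difference above 0, while 18412 of all 37163 genes had one. Mki67, the proliferation marker, was -2.08, -2.44, -2.30 and -2.09 in the low-dose mice, -2.51, -2.46, -2.76, -2.93 and -3.03 in the medium-dose mice and -4.10, -4.18, -2.99, -3.41 and -3.92 in the high-dose mice. Only high-dose mouse 18 lay within the range of the medium dose (difference -1.21 ± 0.17, SE, or 2.31-fold lower, adjusted p = 0.00228). Birc5 (survivin, of the chromosomal passenger complex), Ccnb2 and Cdk1 (cyclin B2 and its kinase), Aurka (a spindle kinase) and Top2a (topoisomerase that untangles sister DNA) were called lower by 1.25, 0.77, 0.63, 0.69 and 0.66 log2 units. For Cenpf, Ttk and Aurkb none of the 14 arrays was well above background. Of the 12 largest decreases that the rule for named genes gives, 7 were genes of mitosis or its control as well. Ccna2 (cyclin A2) fell from -2.74 to -1.83 over the lower doses to -3.84, -3.69, -2.93, -3.42 and -3.73 (difference -1.22 ± 0.13, SE, adjusted p = 0.000394). All high-dose mice lay below all others, which the naming rule requires and which 0.301% of all genes did. The same held for Pimreg, a regulator of the mitotic exit (-1.41 ± 0.12, SE), Spc25 of the kinetochore (-1.25 ± 0.14), Ckap2 of the spindle (-1.17 ± 0.14), the mitotic kinase Pbk (-1.12 ± 0.15), Sgo1, which guards sister cohesion (-1.08 ± 0.13), and Fbxo5, an inhibitor of the anaphase-promoting complex (-0.90 ± 0.12). Of 14 DNA replication genes 13 had a difference below 0, against 18735 of all 37163 genes, and the median was -0.26. By limma 9 were at an unadjusted p under 0.05, against 10.2% of all probes. Only Rrm2, a subunit of ribonucleotide reductase, was called (-0.93 ± 0.18, SE, adjusted p = 0.023). Rrm2 was not called with robust variances and an intensity trend or without mice 6 and 13 together. It was also not called without any 1 of low-dose mouse 10 and high-dose mice 16, 17, 19 and 20. Pcna and the 6 Mcm helicase genes differed by -0.34 to -0.21 and did not pass. Median centring kept the direction of the mitosis list (median -0.41) but left 1 of its 14 genes called, Mki67, and no DNA replication gene; Cdk1 was also not called without mouse 6, nor Top2a without mouse 16, 17 or 20 or without mice 6 and 13 together. Ccna2, Pimreg, Spc25, Ckap2 and Pbk were still called.

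Genes of the vessel wall moved both ways. Gpihbp1, which carries lipoprotein lipase across the capillary wall and marks capillary endothelium, was 6.07, 5.53, 5.76 and 6.49 in the low-dose mice, 6.20, 5.37, 5.48, 5.86 and 5.06 in the medium-dose mice and 3.51, 1.84, 3.98, 3.06 and 1.64 in the high-dose mice. The high-dose mice did not overlap with the lower-dose mice, while low and medium overlapped. The naming rule required a lack of overlap of Gpihbp1, Esm1, Cd34, Sema3c, Ramp3 and Col18a1. Of all genes 0.584% lay wholly above and 0.301% wholly below. The difference of -2.95 ± 0.33 (SE, 7.74-fold lower, limma adjusted p = 0.000662) was the largest decrease among the genes the naming rule admits. Esm1 (endocan, a proteoglycan secreted by endothelium) was 1.41 to 3.19 at the lower doses and 0.82, 0.54, 0.93, 1.12 and -0.26 at the high dose (difference -1.89 ± 0.26, SE, adjusted p = 0.00207). Plvap, which forms the diaphragms of fenestrae and caveolae, and Aplnr, the apelin receptor, were lower by 0.68 and 1.24 log2 units, each in 4 of 5 mice beyond the range of the lower doses (adjusted p = 0.0243 and 0.0356). Cd34, a sialomucin of endothelium and progenitors, went the other way: 1.04, 1.15, 1.44 and 0.89 in the low-dose mice, 1.5, 1.82, 1.06, 1.53 and 1.93 in the medium-dose mice and 3.1, 3.16, 2.55, 2.86 and 3.24 in the high-dose mice. All 5 high-dose mice lay above all lower-dose mice, while low and medium overlapped (difference 1.61 ± 0.14, SE, or 3.05-fold, limma adjusted p = 7.17e-05). Sema3c, a secreted semaphorin that guides vessels and axons (1.42 ± 0.11, SE, adjusted p = 2.92e-05), Ramp3, the receptor partner for adrenomedullin (1.28 ± 0.12, adjusted p = 0.000116), and Col18a1, the basement membrane collagen that yields endostatin (1.09 ± 0.15, adjusted p = 0.00228), rose without overlap. Mmrn2, an endothelial matrix glycoprotein, and Nos3, the endothelial nitric oxide synthase, were called higher at 1.19 and 0.76, with 4 of 5 mice above all lower-dose mice.

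Counted by lists, 1 of 16 angiogenesis genes was higher (Nos3) and 2 lower (Esm1, Aplnr) with a median of 0.005, and 2 of 9 capillary markers were lower (Gpihbp1, Aplnr) with a median of -0.23. The capillary markers split, 4 with a difference above 0 (up to 0.73) and 5 below. Of 13 general endothelial markers 1 was higher (Mmrn2) and 1 lower (Plvap), and the median was 0.14. By limma 7 of the 9 capillary and 9 of the 13 endothelial markers were at an unadjusted p under 0.05, against 10.2% of all probes. Pecam1 and Cdh5, which define endothelium, differed by 0.30 and 0.50 and did not pass (adjusted p = 0.451 and 0.285). The mean log2 ratio over the endothelial list ranged from 4.70 to 5.12 at the low, 4.61 to 5.38 at the medium and 4.90 to 5.42 at the high dose, and that over the capillary list from 3.30 to 3.82, 3.18 to 3.98 and 2.89 to 3.42. Of the 8 lipoprotein lipase genes Gpihbp1 alone was called; Lpl itself differed by -0.09. Plvap was not called under median centring (-0.27, adjusted p = 0.397), nor Aplnr (-0.98, adjusted p = 0.0864), and with robust variances and an intensity trend neither Aplnr nor Mmrn2 was called. Leaving out 1 mouse lost the call of Aplnr in 9 of 14 cases (mice 6, 9, 10, 11, 12, 17, 18, 19 and 20), of Mmrn2 in 9 (mice 6, 8, 9, 10, 11, 16, 17, 19 and 20; also with low and medium as 1 group, adjusted p = 0.0505) and of Plvap in 3 (mice 16, 17 and 20).

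Of 15 complement genes 2 were called higher, against 0.269% of all genes. By limma 9 were at an unadjusted p under 0.05, against 10.2% of all probes. The 15 differences were all above 0, with a median of 0.51, while 18412 of all 37163 genes were above 0. C3, the central component, was 1.02, 1.51, 1.16 and 0.65 in the low-dose mice, 0.77, 0.99, 0.88, 0.89 and 1.01 in the medium-dose mice and 1.64, 1.63, 1.73, 2.65 and 1.87 in the high-dose mice. The high-dose mice were above all others, as in 0.584% of all genes, mouse 19 by far the most (difference 0.92 ± 0.16, SE, limma adjusted p = 0.00813). C4b, of the classical pathway, was 2.31 to 3.54 at the lower doses and 3.59 to 3.95 at the high dose (0.93 ± 0.17, SE, adjusted p = 0.0118). Cfb and C2, the related proteases of the 2 C3 convertases, differed by 1.06 and 1.02 and did not pass (adjusted p = 0.107 and 0.129). Cfd differed by 0.98 with an SE of 0.99; it is also an adipocyte marker, and the mean of the 7 adipocyte markers was 3.94 in high-dose mouse 20 against 0.69 to 1.76 in the other high-dose and 0.45 to 2.12 in the lower-dose mice. The part of fat in these results was not tested. Among 16 collagen and matrix genes all differences were above 0 (median 0.30), against 18412 of all 37163 genes. Only Col4a2, a basement membrane collagen, was called (0.59 ± 0.12, SE, limma adjusted p = 0.0247), against 0.269% of all genes called higher. With normexp background correction or the deposited table Col4a2 was just under the fold minimum. It was not called without any 1 of mice 6, 8, 10, 13, 14, 17, 19 and 20 or without mice 6 and 13 together. Timp1, an inhibitor of matrix proteases, was higher in all 5 high-dose mice, where 0.584% of all genes lay wholly above the lower doses. Its difference (0.58 ± 0.10, SE, limma adjusted p = 0.0114) was also under that minimum. The fibroblast markers had no member called (mean 1.99 to 2.66 at the lower and 2.11 to 2.75 at the high dose), nor had the macrophage and monocyte markers (2.23 to 3.31 and 2.24 to 3.02).

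The rule for naming genes admitted 77 of the 191, and 9 of its 24 largest differences belonged to none of these groups. Dync1i1, an intermediate chain of cytoplasmic dynein, was -0.77 to 0.43 at the lower doses, where it was well above background on none of 4 low-dose and 2 of 5 medium-dose arrays, and 1.05, 2.33, 1.00, 1.66 and 2.69 at the high dose (fitted difference 2.08 ± 0.24, SE, adjusted p = 0.000888; it met the background criterion through the high dose alone, and its low-dose level is only a bound). Uchl1, a ubiquitin hydrolase of neurons and neuroendocrine cells, was 0.15 to 2.01 and then 2.89, 3.15, 2.27, 3.46 and 3.51 (1.99 ± 0.25, SE, adjusted p = 0.00135). Neither group pair overlapped, which the naming rule requires, although medium-dose mouse 15 again came closest. None of the 6 listed neuroendocrine markers was called higher. Grp, gastrin-releasing peptide, was called lower; it was well above background in none of the 5 high-dose mice, where it was lower by at least 1.72-fold (measured means 0.26 against 1.05 at the medium and 1.69 at the low dose; adjusted p = 0.0197). That call was lost with median centring (adjusted p = 0.0894), with robust variances and an intensity trend (0.0711) and without mouse 17, 19 or 20. H1f2, a linker histone (1.49 ± 0.15, SE), Tcim, a regulator of Wnt and NF-kB signalling (1.15 ± 0.12), Akr1b8, an aldo-keto reductase that detoxifies lipid aldehydes (1.14 ± 0.15), and Ecm1, a secreted matrix glycoprotein (1.07 ± 0.13), rose with adjusted p-values from limma between 0.000394 and 0.00136. Syt15, a synaptotagmin, Dnah8, an axonemal dynein, and Adgre4, an adhesion receptor of myeloid cells, fell by 1.53, 0.94 and 0.89. For Syt15 and Dnah8 the other probes differed by only -0.32 to -0.07 and were not called, so these calls rest on 1 probe each; Adgre4 was well above background on 4 of the 5 high-dose arrays.

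In the median of the called genes the step from the medium to the high dose, which spans 50 mg/kg-bw/day, was larger than that from low to medium, which spans 25; single genes such as Cdk1 differed from this. Of the 24 named genes 24 were called against the low dose and 23 against the medium dose, with Cyp1b1 the exception (3.24 ± 0.73, SE, adjusted p = 0.0986). Over all called genes the median step from medium to high was 0.76 for the higher and -0.64 for the lower genes, and that from low to medium 0.12 and -0.28, against 0.003 and -0.006 over all genes. Both steps use the medium-dose arrays, and the genes were chosen for their high-dose values, which favours the upper step. Ecm1, Akr1b8 and Col18a1 differed by 0.05 to 0.07 between low and medium and by 1.05 to 1.12 between medium and high, and Dnah8 and Adgre4 by 0.00 and -0.02 and then by -0.94 and -0.88. Sema3c and Ramp3 were graded: they rose by 0.75 ± 0.13 and 0.67 ± 0.14 (SE) in the lower step, with no overlap between the low-dose and medium-dose mice, and by 1.09 and 0.99 in the upper. Among the lower genes Pimreg fell by 0.51 and then by 1.18, Cdk1 by 0.47 and 0.42, and Car14, a membrane carbonic anhydrase, by 0.58 and 0.61. None of the lower steps passed after adjustment over all probes (limma; the smallest adjusted p was 0.844). The median steps of the lists were 0.01 and 0.36 for AhR targets, 0.001 and 0.21 for p53 targets, -0.28 and -0.45 for mitosis genes and -0.15 and 0.56 for complement genes.

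**Figure D3:**
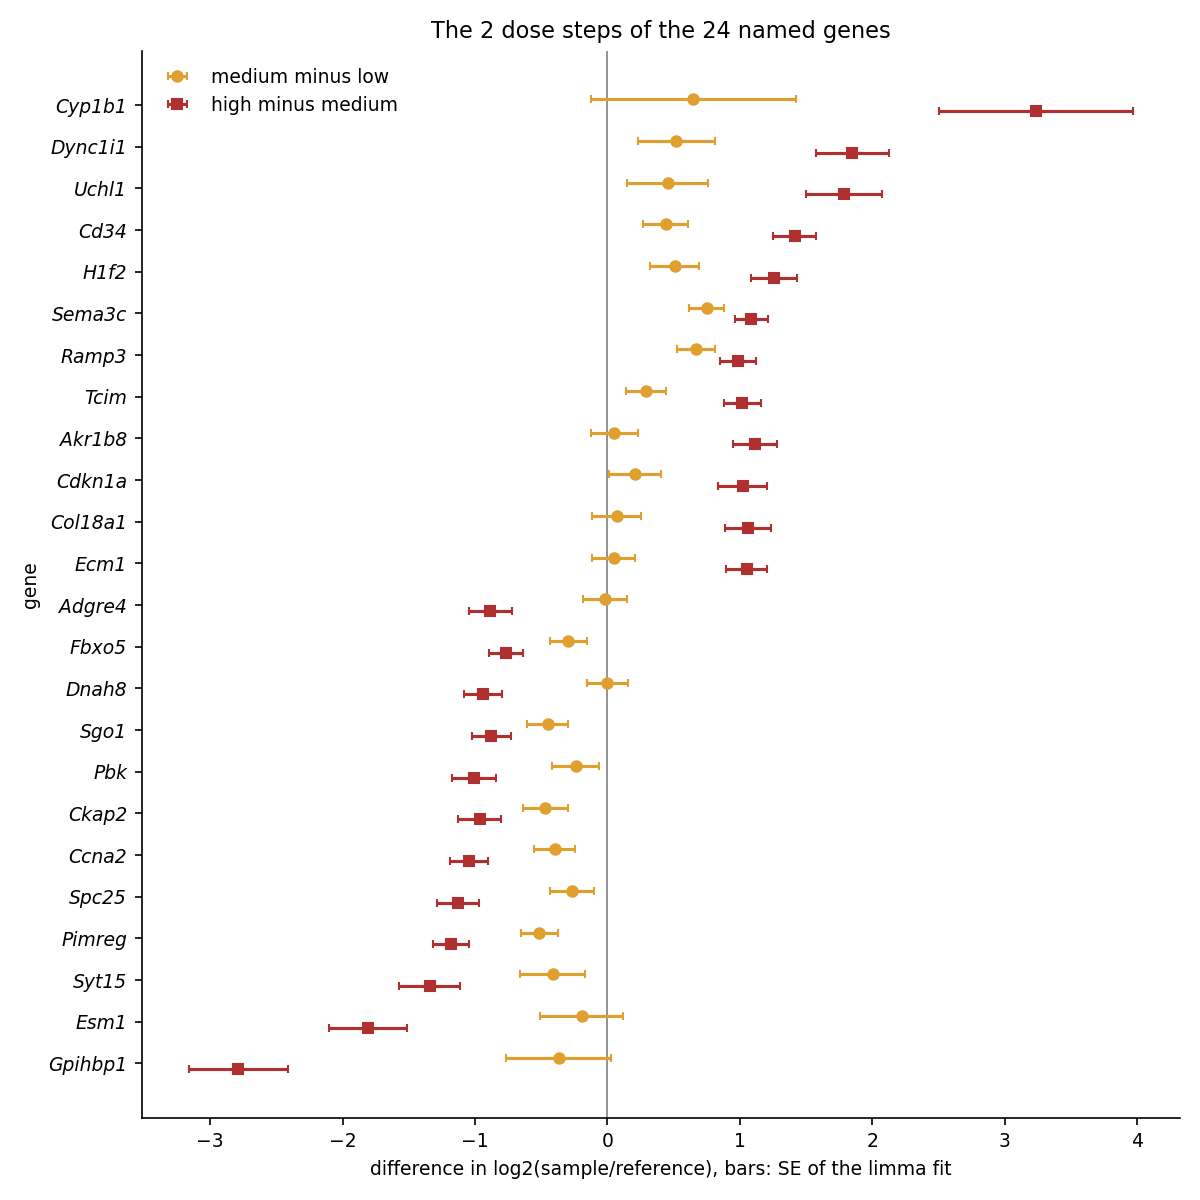
Step from low to medium dose (yellow circles) and from medium to high dose (red squares) for the 24 named genes, as differences of log2 ratios with SE bars from the limma fit. The upper step exceeds the lower in all 24, which were chosen on high-dose values, by the most in Cyp1b1 and Gpihbp1 and by the least in Ramp3 and Sema3c.

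No gene could be called as levelling off or turning back at the high dose. The bend, which is the upper step minus the lower, was tested for all probes and none was called (limma; 3025 probes, 5.43%, at an unadjusted p under 0.05; smallest adjusted p 0.866). Its 95% interval excluded 0 in 18 of the 24 named genes, which had been chosen for high-dose values. With 4 low-dose and 5 medium-dose arrays the intervals are wide: that of Cyp1b1 ran from -0.14 to 5.32 and that of Gpihbp1 from -3.81 to -1.02. Among all called genes the largest positive bends were those of Cyp1a1 (2.77), Cyp1b1 (2.59), Fndc1, a fibronectin-domain protein (1.62), and Uchl1 (1.33). The largest negative bends were those of Gpihbp1 (-2.42), Esm1 (-1.61), Ces2b, a carboxylesterase (-1.30), and Hey1, a Notch target (-1.11). A negative bend means levelling off or turning back only in a gene that rises. Gpihbp1 and Esm1 changed by -0.37 and -0.20 in the lower step and by -2.79 and -1.81 in the upper, so their fall was larger at the top. These 8 genes with the largest bends were chosen for them among genes called at the high dose, and no bend passed the test. An example of a gene highest at the medium dose, picked after its values were seen, is H2-DMb2, which loads peptides on MHC class II: its means were 1.11, 1.62 and 1.27 at low, medium and high dose (bend -0.85, adjusted p = 0.911).

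Of the 23 pathway lists 12 had no gene called by limma (36 of their 135 genes, or 26.7%, were at an unadjusted p under 0.05, against 10.2% of all probes). These shares are of unlike sets: a list gene counts by 1 probe, its brightest where none is called, and 29268 of all 55681 probes have no symbol. With median centring 1 gene each was called higher in the DNA repair, NRF2 and Wnt lists, and without high-dose mouse 16 or 18 there were also 1 to 3 calls in some of these 12, the most being 3 acute phase genes without mouse 16. Among NRF2 targets Srxn1, sulfiredoxin, passed the p alone (0.56, adjusted p = 0.0403) and Hmox1 differed by -0.07. In the acute phase list Saa3, an extrahepatic serum amyloid A, was -4.18 to -2.66 at the lower doses and -3.44, -1.29, -2.46, 1.54 and 0.42 at the high dose. Mice 17, 19 and 20 were again the highest, and the difference of 2.36 did not pass (adjusted p = 0.0817). Clock output genes had a median of 0.35. Per2 and Ciart, repressors of the circadian clock, were above all lower-dose mice in all 5 high-dose mice, as were 0.584% of all genes. They differed by 0.57 and 0.54 and did not pass (limma, adjusted p = 0.0587 and 0.0543). Interferon-stimulated, MHC class II, sterol synthesis, immediate early, hypoxia, Wnt and heat shock genes had medians between -0.13 and 0.12. Single calls were made in 3 further lists: Sgk1, a glucocorticoid-induced kinase (0.67), Cxcl12, a homing chemokine (0.61), and Car14 (-0.87). Sgk1 was not called with median centring (adjusted p = 0.0515), without any 1 of mice 8, 10, 11, 14, 17, 19 and 20 or without mice 6 and 13 together, and Cxcl12 not without mouse 9 or 19. Of the 20 cell type lists 17 had no gene called (11 of 124 genes, or 8.87%, at an unadjusted p under 0.05 by limma), among them the alveolar, club, ciliated, lymphocyte and neutrophil markers. These lists were not alike. At such a p were 4 of 10 T and NK cell markers (members from -1.31 to 0.17), 3 of 6 plasma cell and 2 of 7 neutrophil markers (-0.19 to 0.85). No alveolar, club, ciliated or B cell marker was.

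**Figure D4:**
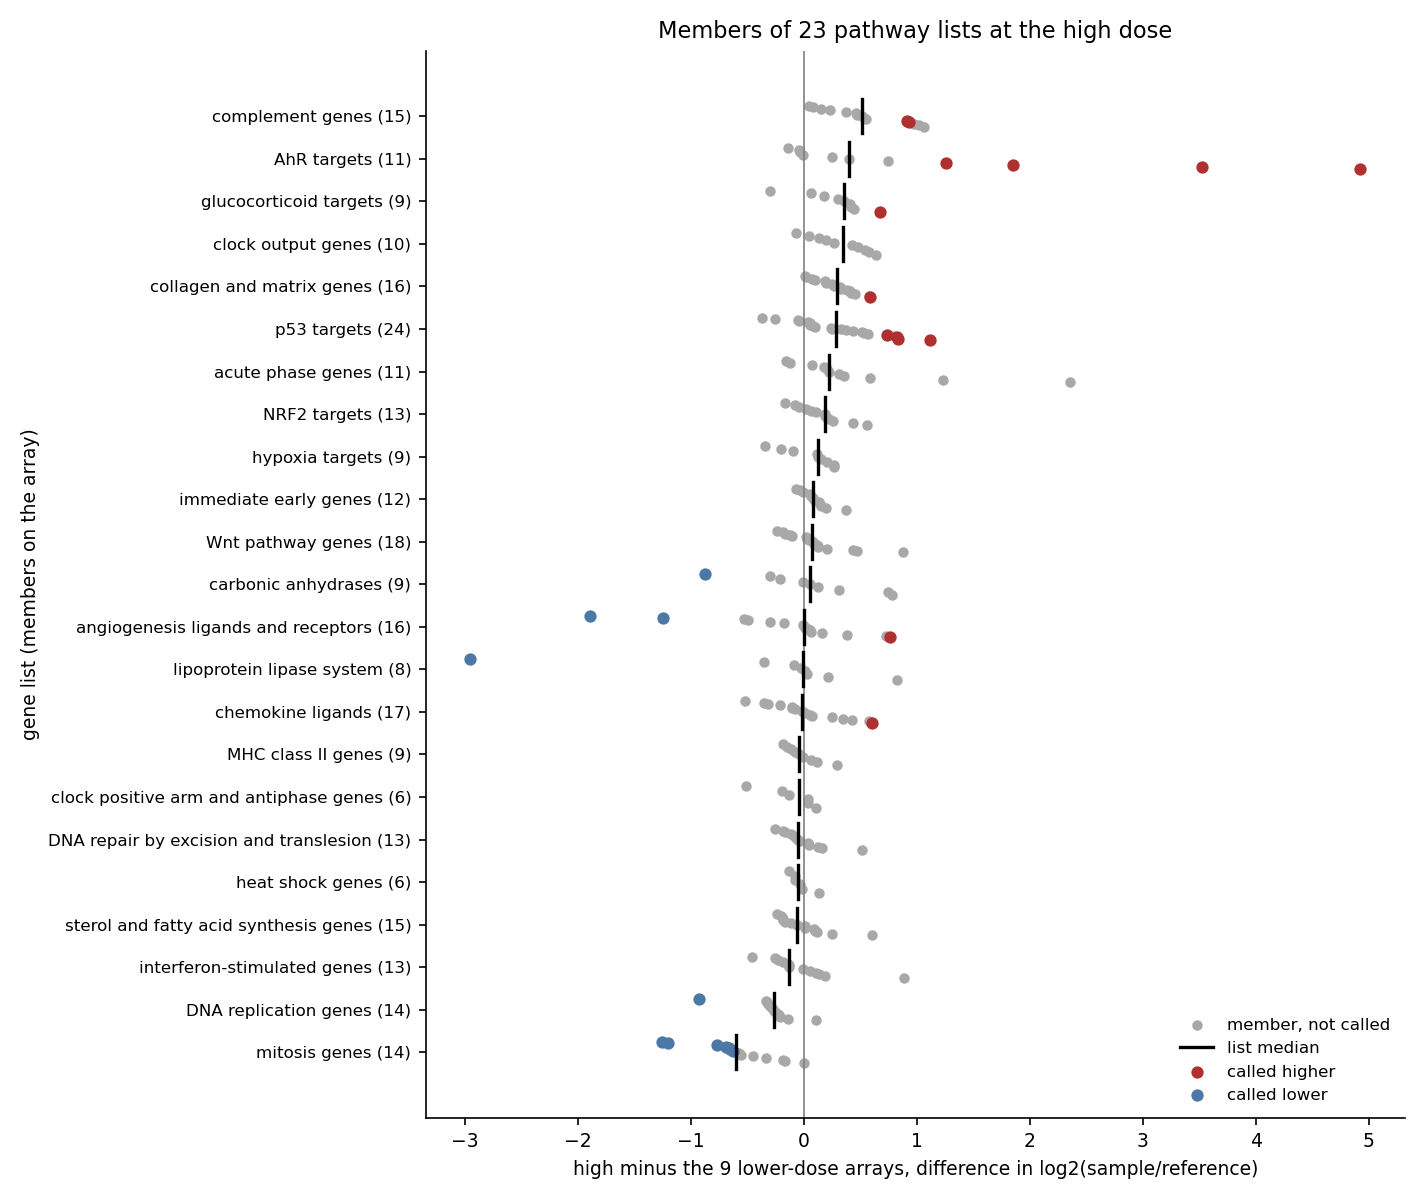
Difference between the high-dose and the 9 lower-dose arrays (log2, horizontal axis) for each member of 23 pathway lists, grey where not called, red where called higher and blue where called lower, with the list median as a black bar. The AhR targets hold the widest spread, up to 4.93, and no mitosis gene lies above 0.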

How the data were processed

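RNA from lung was hybridised to Agilent 8x60K mouse arrays, 1 mouse an array, and scanned by the authors with Feature Extraction 10.7.3.1. The deposited scanner files hold median spot intensity in both channels and of the local background, not normalized. The authors also deposited a table of processed log2 ratios (LOWESS-normalized), used as an alternative. Here the intensities were turned to log2(Cy5/Cy3) without background subtraction and normalized by loess within each array (limma 3.58.1, R 4.3.3); controls were dropped (59305 of 62976 spots remained) and replicate spots averaged to 55681 probes. Accessions gave 20018 symbols through RefSeq (GRCm38.p6) for 26413 probes; 29268 stayed without a symbol. Groups came from the dose labels. One limma fit with 3 dose groups gave all contrasts, the 9 lower-dose arrays weighted equally, with Benjamini-Hochberg adjustment; the MAANOVA of the study was not used here. Genes were named as the 12 largest increases and decreases among called genes with a symbol, well above background throughout the high or the lower doses and with no overlap, plus the 4 largest bends each way and listed genes. The comparison, members and lists were chosen with earlier results of these data known. The number of arrays limits precision. The fit was tested on simulated data. Alternatives were median centring, normexp, the deposited table, slide as block or alone, a filter on dim probes, robust variances with an intensity trend, other weights, the brightest probe and each mouse left out; omitting mice 6 and 13 together was chosen after seeing the data.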

Additional observations from a re-analysis of the deposited data

Results flagged for a closer look

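Of 150 dose groups of single genes or array measures tested for a sample far from the others, 9 held one; chance alone gives about 1 in 20. At the high dose mouse 18 stood above its group for Aurka (-3.02 against -3.88 to -3.65) and for Rrm2 (-2.66 against -4.11 to -3.69), the mouse nearest to the lower doses in many called genes. Aplnr was 3.09 in high-dose mouse 16 and 1.68 to 1.84 in the other 4. High-dose mouse 19 was highest for C3 (2.65 against 1.63 to 1.87) and for Plvap (4.86 against 4.18 to 4.34). Cdk1 was -2.98 in medium-dose mouse 15 against -2.65 to -2.59. Low-dose mouse 6 was lowest for Mmrn2 (6.17 against 7.09 to 7.26) and far above the other low-dose mice for the squamous keratin Krt13 (4.17 against -2.06 to -1.66). In medium-dose mouse 13 68.8% of probes were well above background, against 48.0% to 50.0%.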

How the results depend on the processing

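With all high-dose against lower-dose arrays, the number of genes called was 151 to 202 across the changes of processing. These were not always the same genes: of the 151 with median centring, 95 were among the 191 of the main fit. With a mouse left out the number was 104 (without high-dose mouse 17) to 270 (without mouse 18), and 112 without mouse 20. Against the low dose alone median centring called 90 genes and leaving out a mouse 134 to 306, the most without mouse 18. Against the medium dose median centring called 39 and leaving out a mouse 21 to 167: 26, 49 and 37 without medium-dose mice 11, 12 and 14, and 48, 21, 167 and 23 without high-dose mice 16, 17, 18 and 20. Medium against low and the bend stayed at 0 calls in all alternatives run, with 1132 to 3496 and 1509 to 3682 probes at an unadjusted p under 0.05. Of the named genes Cyp1b1 lost its call with robust variances and an intensity trend (adjusted p = 0.0707) and without high-dose mouse 17 (0.066) or 20 (0.0568), and Sgo1, Dnah8, Fbxo5 and Adgre4 with median centring; the other 19 kept theirs, and all 24 kept their sign within each slide.

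Medians of pathway lists moved by more than the spread between mice in these cases; 8 more such moves were in cell type lists, between -1.82 and 1.62. With median centring they were 0.47 for p53, 0.14 for DNA repair, 0.50 for glucocorticoid, -0.41 for mitosis, -0.0652 for DNA replication, 0.19 for lipoprotein lipase, 0.20 for angiogenesis, 0.0387 for interferon, 0.11 for chemokine, 0.077 for sterol, 0.26 for immediate early and 0.33 for hypoxia genes. Within slide 1 they were 0.48 for p53, -0.79 for mitosis, -0.21 for lipoprotein lipase, 0.23 for complement, -0.18 for sterol and 0.19 for heat shock genes. Within slide 2, with high-dose mouse 18 alone, they were 0.0637 for p53, 0.11 for DNA repair, 0.65 and -0.22 for clock output and positive arm, -0.28 for mitosis, 0.15 for DNA replication, 0.21 for lipoprotein lipase, -0.19 for angiogenesis, -0.14 for chemokine, -0.22 for immediate early and -0.0923 for hypoxia genes. Within slide 3 they were 0.99 for complement, 0.50 for acute phase and 0.0507 for sterol genes. The causes were not tested. No paired analysis was possible because the mouse numbers differ between the dose groups.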

Other observations

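Histone genes were not among the lists and were counted after their values were seen. Of 51 measured, 7 were called higher (against 0.269% of all genes) and 3 lower (against 0.245%), with a median of -0.04. All 3 lower ones, H4c4 (-0.68), H4c12 (-0.62) and H4f16 (-0.61), belong to the 8 measured genes of the core histone H4, whose median was -0.55. The higher ones were led by H1f2 (1.49), H3c15 (1.01) and H2bc4 (0.78). Genes of one core histone family (H2A, H2B, H3 or H4) are nearly identical in sequence, so which copy such a probe measured is uncertain. Whether the probes of the linker histone H1 tell its copies apart was not tested.

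Further endothelial genes outside the lists, also chosen after their values were seen, moved both ways. Podxl, a sialomucin related to Cd34, was higher by 1.04 ± 0.14 (SE, limma adjusted p = 0.00186) and Unc5b, a netrin receptor of vessels, by 0.81 ± 0.11 (adjusted p = 0.00194). For each, 5 of 5 high-dose mice lay above all lower-dose mice, as they did for 0.584% of all genes. Ackr3, the scavenging receptor for Cxcl12, was higher by 1.46 ± 0.28 in 4 of 5. Efna1, an ephrin ligand, and Clec14a, an endothelial lectin, were lower by 0.73 and 0.62 log2 units in 5 of 5, where 0.301% of all genes lay wholly below.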
